A study of Mus musculus with 9 samples.

Results

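The glycolysis and hypoxia response genes studied here are 33 gene symbols, matched by exact name in a table of expression for 54532 mouse genes. They correspond to 34 gene identifiers, because Aldoa is listed as 2 adjoining gene models, and 32 of the 34 are also present in a smaller table of raw counts for 9877 genes. Monocytic myeloid-derived suppressor cells, monocyte-like cells that restrain T cells in tumours, had been isolated from mice bearing tumours of MC38, a colon carcinoma line, and their poly-A RNA was sequenced in 9 libraries. The 3 groups of 3 libraries came from WT mice, from mice labelled LILRB4+/+ (the LILRB4 libraries), and from mice labelled LILRB4+/+ SCG2-/- (the SCG2-/- libraries), which carry the same LILRB4 genotype as the second group. LILRB4 is an inhibitory leukocyte receptor and SCG2 encodes secretogranin II, which the series title presents as interacting with it. The labels do not state how the LILRB4+/+ animals were made, nor which animal each library came from, so the p-values reflect variation among these samples only, and part of it may be technical. Levels are given as FPKM, fragments per kilobase scaled to library depth, which can be compared between genes, and differences as log2 fold changes with standard errors (SE).

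Glycolysis converts glucose to pyruvate in the cytosol. Glucose enters through transporters such as SLC2A1, hexokinases trap it as glucose 6-phosphate, phosphofructokinase commits it to the pathway, and lactate dehydrogenase and the exporter SLC16A3 remove the product when pyruvate is not oxidised. When oxygen is scarce, prolyl hydroxylases of the EGLN family no longer mark the HIF1A protein for destruction, and HIF1A with its partner ARNT then activates most glycolytic genes together with Vegfa, Bnip3, Ankrd37, P4ha1 and other targets through short DNA elements. In tumour myeloid cells this programme is a well-known feature of the hypoxic parts of a tumour. Because HIF1A is controlled largely as a protein, the Hif1a transcript does not measure its activity.

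The hypoxia response element has the core ACGTG or GCGTG. These letters were searched on both strands, as CACGT and CACGC on the opposite strand, in RefSeq promoter windows (GRCm38.p6) reaching from 250 bases before to 50 after each start. Of the 33 members, 30 had windows there. Bhlhe40, Ndrg1 and Bnip3l had none. A core was found in 36 of 44 member windows (81.8%) and in 14380 of all 32851 windows (43.8%). By gene, 28 of 30 members (93.3%) held a core in some window, against 12628 of 27025 genes (46.7%), and the members without one were Gpi1 and Tpi1. These shares are not like for like, since the members had 44 windows for 30 genes, against 32851 for 27025. The member windows were richer in G and C, with a median of 62.2% against 52.7%. Among windows with at least 60% G and C, a core was found in 23 of 25 member windows (92%) and in 69.2% of 9690 windows. The palindrome CACGTG, which overlaps ACGTG and is the E-box that BHLHE40 binds, was found in 5 of 44 member windows (11.4%) and in 7.15% of all windows.

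The 250 bases before the start are shown for Hk2, the member with the smallest p-value and a higher level in LILRB4 libraries, and for P4ha2, a hypoxia target whose level was lower there, chosen after its values were seen. Capitals mark the cores. The Hk2 sequence is chr6:82774455-82774704, minus strand, directly before the gene, with cores that begin 226 and 52 bases before the start. The P4ha2 sequence is chr11:54100674-54100923, plus strand, inside the gene as the deposited table bounds it, with cores beginning 107, 78 and 69 bases before the start. A match to these letters is not evidence of binding.
Hk2: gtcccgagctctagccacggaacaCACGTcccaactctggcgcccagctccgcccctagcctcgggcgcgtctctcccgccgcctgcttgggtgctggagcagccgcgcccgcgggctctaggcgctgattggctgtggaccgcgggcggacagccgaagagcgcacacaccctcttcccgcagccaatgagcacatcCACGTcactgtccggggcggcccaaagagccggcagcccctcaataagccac
P4ha2: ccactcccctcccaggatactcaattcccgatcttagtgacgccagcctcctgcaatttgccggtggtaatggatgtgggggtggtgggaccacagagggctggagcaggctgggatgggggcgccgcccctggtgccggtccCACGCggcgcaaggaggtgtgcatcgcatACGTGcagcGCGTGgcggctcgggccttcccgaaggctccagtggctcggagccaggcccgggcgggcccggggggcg

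The 33 genes took up between 1.38% and 2.01% of all counts in a library. Deposited counts summed to between 14501163 and 27219202 per library. Of the genes named in the genotypes, Scg2 was listed at 0 in 7 of 9 libraries and at most at 0.0242 FPKM, so it cannot check the knockout label, and Lilrb4a was listed at 47.7 to 138 FPKM in WT, 154 to 274 in LILRB4 and 131 to 157 in SCG2-/- libraries. The 12 monocyte and macrophage markers examined, among them Ly6c2, Ccr2, Csf1r and Adgre1, were all detected, with a summed level between 3103 and 7627 CPM (counts scaled to library depth). Cd14 was the largest part of that sum in every library, at 1299 to 4002 CPM. Lyz2, on the same list, differed widely between groups. It was at 16.99, 103 and 153 CPM in WT replicates 1 to 3 and 14.2, 23.2 and 20.6 in LILRB4. In SCG2-/- replicates 1 to 3 Lyz2 was at 1113, 455 and 363 CPM, and the reason was not tested. The neutrophil sum was 66.8 to 225 CPM with Ly6g and Elane under 1 CPM in every library, and 7 of 10 carcinoma markers, including Krt8, Krt18 and Krt19, were under 1 CPM everywhere. The carcinoma list summed to 81.7 to 192 CPM, nearly all of it Cdh1 at 75.8 to 190.3 CPM. Markers of T and NK cells varied widely between libraries of the same group. Their 12 genes were all detected and summed to 528, 126 and 176 CPM in WT replicates 1 to 3, to 739, 117 and 612 CPM in LILRB4 replicates 1 to 3, and to 429, 799 and 801 CPM in SCG2-/- replicates 1 to 3. Fibroblast markers summed to between 1494 and 3155 CPM. Genes of dissociation and stress, both immediate early and heat shock genes, summed to between 7574 and 18634 CPM, highest in WT replicate 1. Fos, Jun and the heat shock genes Hspa1a, Hspa1b, Hsp90aa1 and Dnajb1 were highest there, and Fosb, Junb, Egr1, Atf3, Ier2 and Zfp36 in other libraries. In such bulk libraries, fewer cells of a type and less RNA per cell cannot be told apart.

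**Figure D1:**
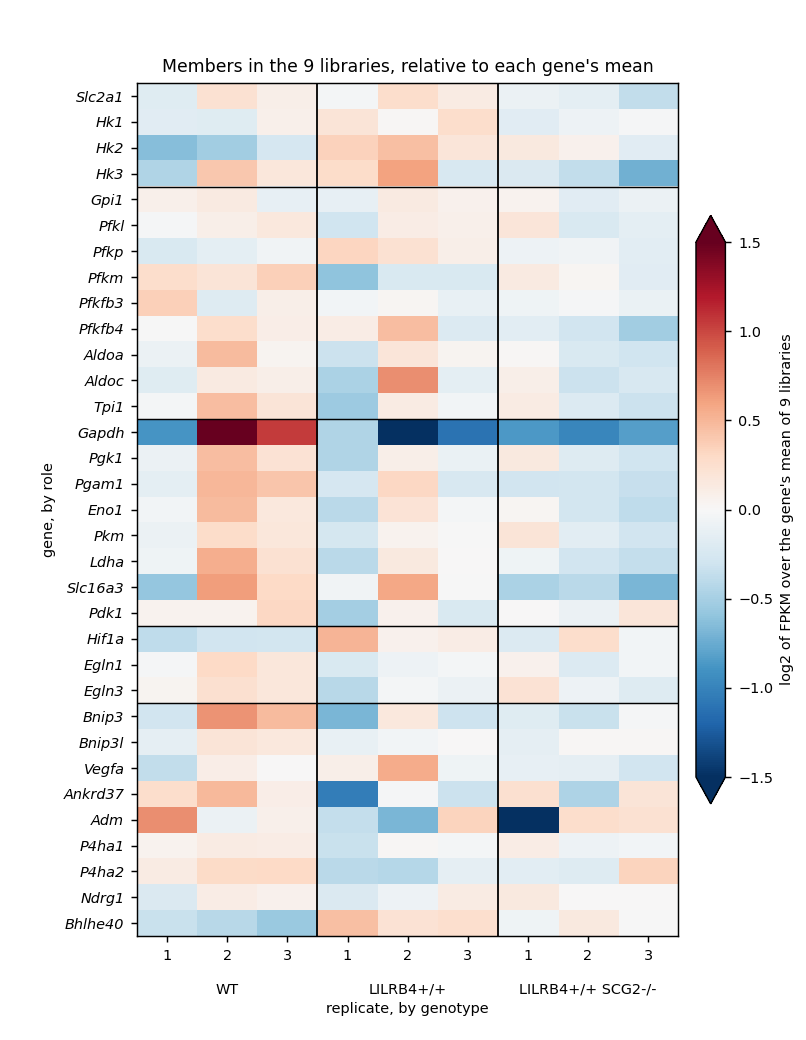
FPKM of the 33 members (rows, grouped by role) in the 9 libraries (columns), as log2 of the value over that gene's mean of the 9 libraries. Hk2 and Bhlhe40 are lowest in the WT columns, most enzymes from Aldoa to Ldha are highest in WT replicate 2, and Gapdh has the widest range.

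Hk2 and Bhlhe40 were the members that differed between LILRB4 and WT libraries. Both were higher in all 3 LILRB4 libraries than in any WT library, by 1.73-fold for Hk2 and 1.68-fold for Bhlhe40. With edgeR's quasi-likelihood test on deposited counts and Benjamini-Hochberg adjustment over all 9877 genes at a threshold of 0.05, 2 of 32 members (6.25%) were higher and 0 of 32 lower, against 1.73% of all genes higher and 0.516% lower. Before adjustment, p was under 0.05 for 4 higher and 7 lower of 32, against 1113 higher and 1117 lower of 9877. The members' median log2 fold change was -0.16, with 22 of 32 below 0, and that of all genes was -0.02.

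HK2 is the inducible hexokinase that catalyses the first step of glycolysis. Hk2 (chr6:82725025-82774454, minus strand) measured 25.0, 27.2 and 32.9 FPKM in WT replicates 1 to 3, 49.8, 53.4 and 44.2 in LILRB4 replicates 1 to 3, and 43.3, 40.9 and 34.8 in SCG2-/- replicates 1 to 3. Every LILRB4 and every SCG2-/- library lay above every WT library, and the SCG2-/- libraries lay below the LILRB4 libraries. The LILRB4 against WT difference was 0.76 (SE 0.15, edgeR adjusted p = 0.0324). BHLHE40 is a transcriptional repressor induced by hypoxia and by cytokines. Bhlhe40 (chr6:108660629-108666925, plus strand) measured 190.8, 181 and 164 FPKM in WT, 329, 281 and 288 in LILRB4, and 231, 267 and 239 in SCG2-/- replicates 1 to 3, with the same order of groups and no overlap between any of them. The LILRB4 against WT difference was 0.72 (SE 0.16, edgeR adjusted p = 0.0499).

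Both calls rested on most of the 9 libraries and on the fit. They ended with only the 2 groups compared (edgeR adjusted p = 0.0691 for Hk2 and 0.0944 for Bhlhe40) and with limma on log2(FPKM + 1) (limma adjusted p = 0.0547 and 0.0614). Both ended when WT replicate 1, 2 or 3, LILRB4 replicate 1 or 3, or SCG2-/- replicate 2 was left out, with adjusted p between 0.0608 and 0.12 for Hk2 and between 0.0743 and 0.189 for Bhlhe40, while the log2 fold changes without any 1 library stayed between 0.69 and 0.87 for Hk2 and between 0.65 and 0.78 for Bhlhe40. The call of Bhlhe40 also ended without SCG2-/- replicate 1 (adjusted p = 0.0546) or 3 (adjusted p = 0.0586). With counts recovered from the FPKM table, which tests 15743 genes, Hk2 passed (0.78, SE 0.16, edgeR adjusted p = 0.0487) and Bhlhe40 did not (0.73, SE 0.16, edgeR adjusted p = 0.0599), so that 1 of 34 members was higher (2.94%, against 0.813% of all genes) and 0 of 34 lower (against 0.0572%). With the sum of T and NK markers as a covariate, a fit chosen after seeing the data, the differences were 0.81 (edgeR adjusted p = 0.0131) for Hk2 and 0.65 (edgeR adjusted p = 0.0452) for Bhlhe40. That alternative called 2 members higher (5.88%, against 2.41% of all genes) and 1 lower (2.94%, against 0.832%). DESeq2 called more of everything, with 4 of 34 members higher (11.8%, against 4.92% of 14824 genes) and 3 lower (8.82%, against 2.63%). Both sets of shares join 2 fits, 1 of deposited counts and 1 of recovered counts for genes absent from the count table. Of the 34 members, 32 came from the deposited counts, so these shares are not a like-for-like background. With edgeR, 1.73% of genes were higher in the deposited counts and 0.813% in the recovered counts.

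In SCG2-/- against LILRB4 libraries, 0 members passed in either direction with edgeR on deposited or on recovered counts, where 0% of all genes passed too, and DESeq2 called 0 members, against 0.162% of all genes higher and 1.66% lower. Before adjustment, p was under 0.05 for 2 higher and 3 lower of 32 members in the deposited counts, against 482 higher and 610 lower of 9877 genes. Hk2 differed by -0.25 (95% interval -0.54 to 0.04) and Bhlhe40 by -0.23 (95% interval -0.55 to 0.09). In SCG2-/- against WT, 0 members passed with edgeR on either source, again with 0% of all genes called, and before adjustment p was under 0.05 for 2 higher and 5 lower, against 837 higher and 603 lower of all genes. There Hk2 differed by 0.51 (SE 0.15, edgeR adjusted p = 0.317) and Bhlhe40 by 0.49 (SE 0.16, edgeR adjusted p = 0.317). DESeq2 called 1 member in this comparison, Bhlhe40 (0.48, DESeq2 adjusted p = 0.0445), which was higher, against 0.642% of all genes higher and 0.203% lower. Any 2 of the comparisons share the libraries of 1 group.

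**Figure D2:**
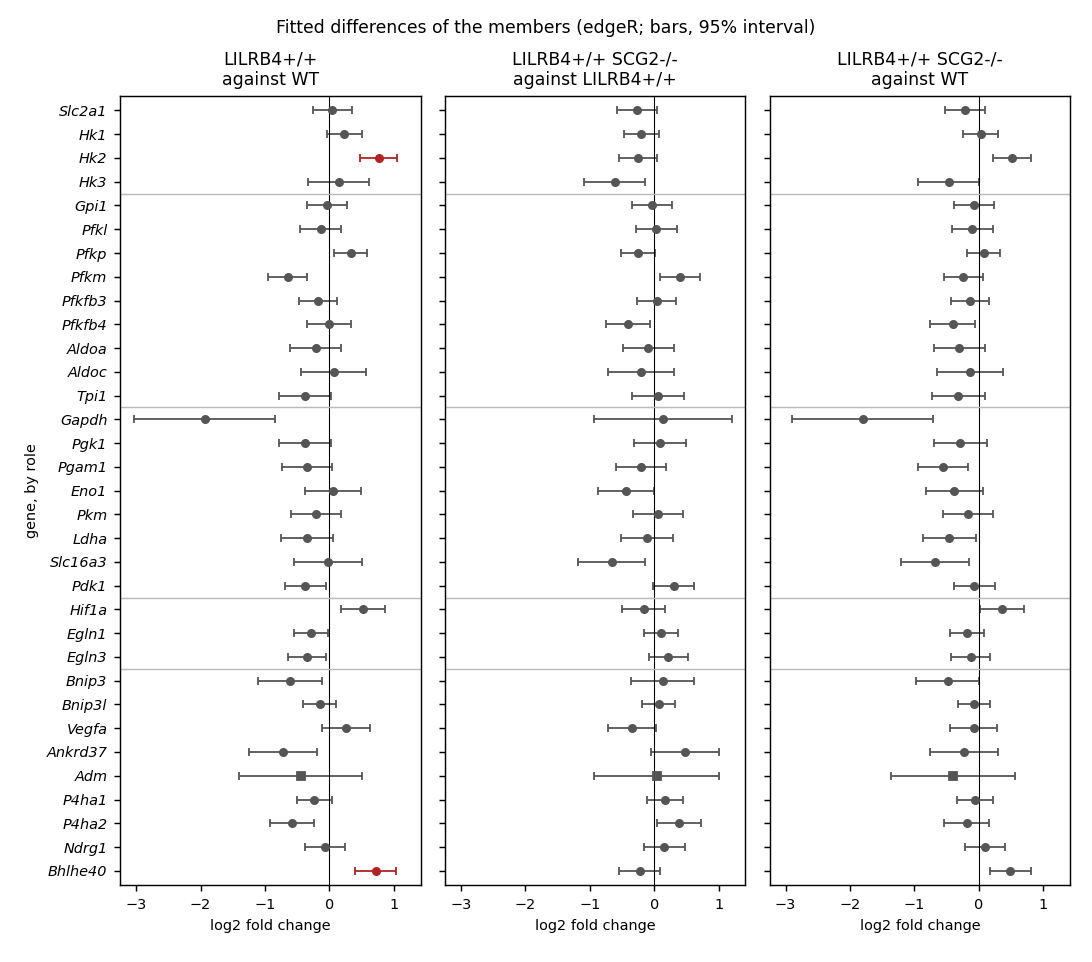
Log2 fold changes of the members (rows, by role) in the 3 comparisons, with bars for the 95% interval. Values are from edgeR on deposited counts, or on recovered counts for Adm (square), the second Aldoa model is not drawn, and red marks the calls, Hk2 and Bhlhe40 in LILRB4 against WT.

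Among glucose uptake and hexokinase genes, all 4 had a positive log2 fold change in LILRB4 against WT (median 0.19). Without WT replicate 1, Slc2a1 was at -0.04 and Hk3 at -0.05 in that comparison. All 4 had a negative log2 fold change in SCG2-/- against LILRB4 (median -0.26). Slc2a1, the glucose transporter GLUT1 and the most abundant of them, measured 113, 149.9 and 136 FPKM in WT, 126, 154 and 139.6 in LILRB4 and 120.6, 116 and 99.8 in SCG2-/- replicates 1 to 3. Its SCG2-/- libraries lay below all LILRB4 libraries, with a difference of -0.26 (95% interval -0.57 to 0.05, edgeR adjusted p = 0.56), and overlapped WT. Slc2a1 overlaps the same-strand miRNA gene Mir1957a and the antisense gene Gm12867, and whether counting used the strand is not stated. Hk1, the housekeeping hexokinase, averaged 19.7 ± 2.02 FPKM (SD, n = 3) in WT, 23.5 ± 1.99 in LILRB4 and 19.7 ± 1.05 in SCG2-/-.

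HK3 is the hexokinase most restricted to myeloid cells. Hk3 measured 14.9, 26.9 and 22.9 FPKM in WT, 24.8, 31.0 and 17.2 in LILRB4, and 17.6, 15.8 and 12.4 in SCG2-/- replicates 1 to 3. The groups overlapped, and LILRB4 replicate 2 was the highest library. The SCG2-/- against LILRB4 difference was -0.61 (SE 0.24, edgeR adjusted p = 0.402), and that against WT was -0.47 (SE 0.24, edgeR adjusted p = 0.378). The latter was -0.29 without WT replicate 2 and -0.05 with the T and NK covariate, and the former -0.39 with it.

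Phosphofructokinase, an upper step of glycolysis, is built from the PFKL, PFKP and PFKM subunits, and none of their genes passed with edgeR on deposited counts. Pfkm (chr15:98092589-98132451, plus strand) measured 9.25, 8.81 and 9.89 FPKM in WT, 5.06, 6.58 and 6.56 in LILRB4, and 8.47, 7.83 and 6.86 in SCG2-/- replicates 1 to 3. The 3 groups did not overlap, with LILRB4 lowest, SCG2-/- between and WT highest. Pfkm differed by -0.65 in LILRB4 against WT (SE 0.16, edgeR adjusted p = 0.0555) and by 0.40 in SCG2-/- against LILRB4 (SE 0.16, edgeR adjusted p = 0.387), or 0.25 without LILRB4 replicate 1. It passed in LILRB4 against WT with DESeq2 (-0.62, DESeq2 adjusted p = 0.0111), without LILRB4 replicate 2 (edgeR adjusted p = 0.0481) and with the T and NK covariate (edgeR adjusted p = 0.049). Senp1 overlaps it on the opposite strand.

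Pfkp averaged 22.9 ± 1.37 FPKM in WT, 29.3 ± 2.35 in LILRB4 and 23.7 ± 0.918 in SCG2-/- (SD, n = 3), and its LILRB4 libraries lay above those of both other groups. Its log2 fold change was 0.33 in LILRB4 against WT (SE 0.13, edgeR adjusted p = 0.179) and -0.25 in SCG2-/- against LILRB4 (SE 0.13, edgeR adjusted p = 0.5). Pfkl, at 38.2 ± 2.4, 35.5 ± 5.35 and 34.9 ± 5.48 FPKM in the same order of groups, overlapped throughout and was the most abundant of the 3 subunit genes. Between LILRB4 and WT libraries the Pfkm mean thus moved by a ratio of 0.651 and the Pfkp mean by 1.28, and the difference between the 2 genes was not tested.

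PFKFB3 and PFKFB4 set the level of fructose 2,6-bisphosphate, the activator of phosphofructokinase. Pfkfb3 averaged 15.03 ± 2.89, 13.6 ± 0.688 and 13.4 ± 0.388 FPKM in WT, LILRB4 and SCG2-/- (SD, n = 3). Pfkfb4 averaged 6.18 ± 0.587, 6.31 ± 1.46 and 4.57 ± 0.566, and its SCG2-/- libraries lay below all WT libraries (-0.41, SE 0.18, edgeR adjusted p = 0.335). Gpi1, which isomerises glucose 6-phosphate, had similar means in the groups, at 109 ± 9.96, 108 ± 9.73 and 102 ± 8.15 FPKM.

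Aldoa, the more abundant aldolase gene of the list, measured 383, 566 and 419 FPKM in WT, 326, 459.6 and 418 in LILRB4, and 409.9, 346 and 331 in SCG2-/- replicates 1 to 3. The groups overlapped, and the fitted differences were -0.21 in LILRB4 against WT and -0.30 in SCG2-/- against WT, each with SE 0.20. Without WT replicate 2 they were -0.02 and -0.14. The second Aldoa model, which adjoins the first on chromosome 7, was listed at 1.47 to 4.93 FPKM, and Aldoc, a minor aldolase here, averaged 5.90 ± 0.689, 6.31 ± 2.78 and 5.26 ± 0.827 FPKM. Triose phosphate isomerase Tpi1 averaged 271 ± 46.5, 213 ± 48 and 213 ± 35.1 FPKM (SD, n = 3), with a LILRB4 against WT difference of -0.38 (SE 0.21, edgeR adjusted p = 0.303), or -0.18 without LILRB4 replicate 1.

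None of the genes of the lower steps and of lactate passed the test. Against WT, all 8 had, in SCG2-/- libraries, a negative log2 fold change (median -0.42), and in LILRB4 against WT 7 of 8 did (median -0.35), or 8 of 8 with recovered counts (median -0.33), where Eno1 changes sign. The sum of T and NK markers was also higher in SCG2-/- than in WT libraries, with means of 676 and 277 CPM. With it as a covariate, 3 of the 8 SCG2-/- against WT values were above 0, at 0.02 for Pkm, 0.0019 for Pgk1 and 0.07 for Pdk1. Because the sum differed between these genotypes, that fit cannot separate cell content from genotype. Pdk1 was also above 0 without WT replicate 3, at 0.0065. Pkm, pyruvate kinase and the most abundant member, measured 609, 781 and 727 FPKM in WT, 539.6, 673 and 647 in LILRB4, and 744, 582 and 529 in SCG2-/- replicates 1 to 3, and the groups overlapped. A same-strand gene model, AC160637.1, overlaps Pkm and was listed at a mean of 30.6 FPKM. Phosphoglycerate kinase Pgk1 averaged 527 ± 100, 414 ± 76.6 and 424 ± 70.6 FPKM in WT, LILRB4 and SCG2-/- (SD, n = 3).

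Pgam1, phosphoglycerate mutase, and Ldha, the lactate dehydrogenase subunit that HIF1A induces, were lower in every SCG2-/- library than in any WT library. For Ldha the closest values were nearly equal, at 392.88 FPKM in SCG2-/- replicate 1 and 393.02 in WT replicate 1. Pgam1 averaged 257 ± 57.5 FPKM in WT, 206 ± 48.2 in LILRB4 and 171 ± 3.99 in SCG2-/-, a SCG2-/- against WT difference of -0.55 (SE 0.20, edgeR adjusted p = 0.317). Ldha averaged 490 ± 103, 392 ± 74.4 and 349 ± 38.6 FPKM (SD, n = 3), a difference of -0.46 (SE 0.21, edgeR adjusted p = 0.34). Neither passed the test. With the T and NK covariate the differences were -0.20 for Pgam1 and -0.18 for Ldha, and without WT replicate 2 they were -0.45 and -0.31.

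SLC16A3 is the lactate exporter MCT4. Slc16a3 measured 41.3, 95.6 and 76.0 FPKM in WT, 59.4, 92.6 and 61.4 in LILRB4, and 44.3, 46.7 and 38.3 in SCG2-/- replicates 1 to 3. The SCG2-/- libraries lay below all LILRB4 libraries and close to WT replicate 1, which was far below the other two WT libraries. The difference was -0.66 against LILRB4 (SE 0.27, edgeR adjusted p = 0.411) and -0.69 against WT (SE 0.27, edgeR adjusted p = 0.33). The latter ranged from -0.95 without WT replicate 1 to -0.43 without WT replicate 2, and was -0.14 with the T and NK covariate, while the former was -0.38 with that covariate. Pdk1, a kinase that limits pyruvate oxidation, averaged 11.3 ± 1.19, 8.87 ± 1.77 and 10.5 ± 1.01 FPKM, with -0.38 in LILRB4 against WT (SE 0.16, edgeR adjusted p = 0.199), or -0.22 without LILRB4 replicate 1.

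Gapdh was listed at 9.99, 59.6 and 38.2 FPKM in WT, 13.5, 6.38 and 8.57 in LILRB4, and 10.2, 9.35 and 10.4 in SCG2-/- replicates 1 to 3. WT replicates 2 and 3 were high, and WT replicate 1 lay among the other groups. These levels are far below those of the neighbouring steps, Tpi1 and Pgk1, which averaged 213 to 527 FPKM by group. The 5 annotated Gapdh copies in the table held 65 recovered counts in all, against 14677 for Gapdh, and the reason for the low level was not tested. The fitted differences were -1.94 in LILRB4 against WT (SE 0.56, edgeR adjusted p = 0.103) and -1.81 in SCG2-/- against WT (SE 0.56, edgeR adjusted p = 0.317). Without WT replicate 1 the former was -2.38 and passed (edgeR adjusted p = 0.0235), and without WT replicate 2 it was -1.35 (edgeR adjusted p = 0.224).

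Eno1, enolase 1 (chr4:150236721-150248879, plus strand), was the member whose value depended on the table. Its FPKM were 416, 598 and 481 in WT, 325, 497 and 422 in LILRB4, and 439.6, 354 and 331 in SCG2-/- replicates 1 to 3. Scaled by the gene's length and a library constant, these return whole counts that equal the count table in 8 of 9 libraries. In LILRB4 replicate 1 the count table holds 58745 and the FPKM table corresponds to 28745. The other LILRB4 counts were 63445 and 60027 in both tables, the WT counts 48050, 77412 and 53230, and the SCG2-/- counts 43228, 32644 and 29223.

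That 1 value sets the sign of Eno1 in LILRB4 against WT, which was 0.05 (SE 0.22, edgeR adjusted p = 0.905) from deposited counts but -0.28 (SE 0.23, edgeR adjusted p = 0.525) from recovered ones. In SCG2-/- against LILRB4 the deposited counts gave -0.43 (SE 0.22, edgeR adjusted p = 0.493) and the recovered counts -0.12 (SE 0.23, edgeR adjusted p = 0.926), so most of the difference in the count table is carried by this value. Against WT the SCG2-/- difference was -0.38 and -0.40. Over all genes, 56 of 88893 values in 47 genes were unequal between the tables, 41 of these genes in LILRB4 replicate 1, and no other member was among them. The files do not say which table holds the intended value. The near-identical copy Eno1b was listed at a mean of 25.5 FPKM, with 1.92% of the recovered counts of Eno1, and could share reads with it.

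**Figure D3:**
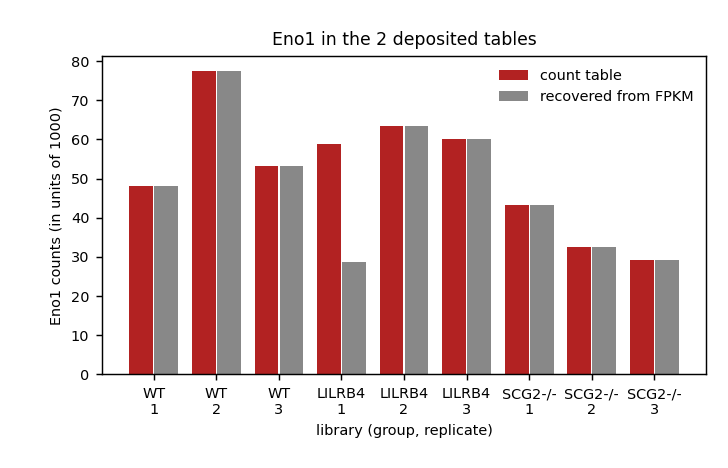
Eno1 counts (vertical axis) in the 9 libraries, as deposited in the count table (red) and as recovered from FPKM (grey). The pairs are equal except in LILRB4 replicate 1, at 58745 against 28745.

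The high-level enzymes varied together within groups. For the 8 enzymes with a mean above 100 FPKM (Gpi1, Aldoa, Tpi1, Pgk1, Pgam1, Eno1, Pkm and Ldha, a set formed after the values were seen), the summed level was 2760, 3906 and 3280 FPKM in WT, 2268, 3201 and 2839 in LILRB4, and 3026, 2486 and 2332 in SCG2-/- replicates 1 to 3. In each group the library with the highest sum was the one with the lowest sum of T and NK markers, which were WT replicate 2, LILRB4 replicate 2 and SCG2-/- replicate 1. The same libraries also had their group's highest monocyte and macrophage sum (7177, 7627 and 5460 CPM) and neutrophil sum (112.5, 224.9 and 76.6 CPM). Their dendritic cell sums (110, 74.7 and 227 CPM) and endothelial sums (31.1, 42.9 and 52.6 CPM) were the lowest of their group. Fibroblast sums were lowest there in WT and LILRB4 but not in SCG2-/-. Which of these the enzymes follow was not tested. Of the 33 members, 15 (45.5%) had their group's highest value in that library in all 3 groups, against 12.1% of 15183 genes with a mean recovered count of at least 10, and 2 members (6.06%) had their lowest value there in all 3, against 11% of genes. The 15 were Slc2a1, Hk3, Gpi1, Pfkfb4, Aldoa, Aldoc, Tpi1, Pgk1, Eno1, Pkm, Ldha, Egln3, Vegfa, Ankrd37 and P4ha1. The group means of that sum were 277, 489 and 676 CPM in WT, LILRB4 and SCG2-/-. With the sum as a covariate, the SCG2-/- against WT differences of the 8 enzymes were -0.02 for Gpi1, -0.06 for Aldoa, -0.04 for Tpi1, 0.0019 for Pgk1, -0.20 for Pgam1, -0.31 for Eno1, 0.02 for Pkm and -0.18 for Ldha. The Eno1 value is from deposited counts, where LILRB4 replicate 1 holds 58745 and not the recovered 28745. With recovered counts it was not tested. As the sum differed between genotypes, this fit cannot separate cell content from genotype. Without the covariate all 8 were negative, from -0.55 for Pgam1 to -0.07 for Gpi1.

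**Figure D4:**
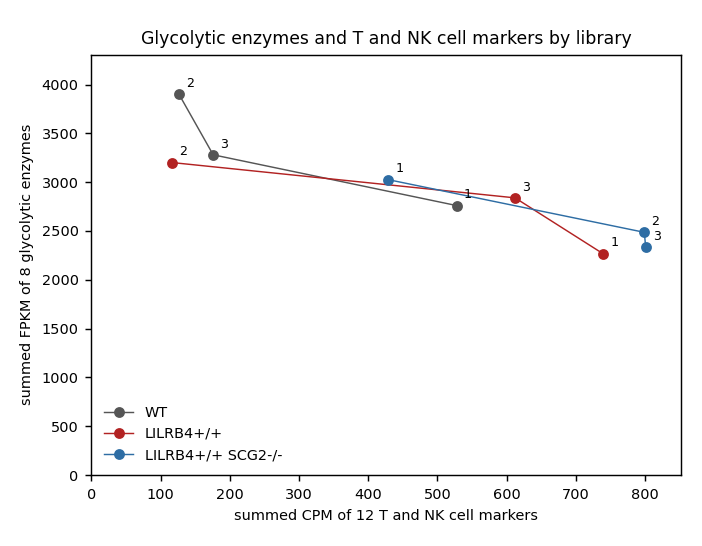
Summed FPKM of the 8 enzymes (vertical axis) against summed CPM of the 12 T and NK markers (horizontal axis), 1 point per library, numbered by replicate, with lines joining libraries of a group in order of the horizontal axis. In each group the sum of enzymes is highest where the T and NK sum is lowest, from 3906 FPKM at 126 CPM in WT replicate 2 to 2268 FPKM at 739 CPM in LILRB4 replicate 1. The libraries with the lowest T and NK sums also had the highest monocyte and neutrophil and lowest dendritic and endothelial sums of their group, which are not drawn.

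In oxygen sensing, the Hif1a transcript had a positive difference in LILRB4 against WT and those of both hydroxylases a negative one, and none passed with edgeR. Hif1a (chr12:73901375-73947530, plus strand) measured 43.9, 47.0 and 47.3 FPKM in WT, 81.3, 59.8 and 61.9 in LILRB4, and 49.6, 68.5 and 55.8 in SCG2-/- replicates 1 to 3. All LILRB4 and all SCG2-/- libraries lay above all WT libraries, the WT values were tightly grouped, and LILRB4 replicate 1 was the highest. The difference was 0.52 in LILRB4 against WT (SE 0.17, edgeR adjusted p = 0.116) and 0.36 in SCG2-/- against WT (SE 0.17, edgeR adjusted p = 0.355). The latter was 0.23 without SCG2-/- replicate 2 and 0.20 with the T and NK covariate. The former was 0.39 without LILRB4 replicate 1 and 0.44 with that covariate. Of 20 alternatives, DESeq2 alone called the LILRB4 against WT difference (0.54, DESeq2 adjusted p = 0.0281).

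EGLN1 is the main HIF prolyl hydroxylase, and EGLN3 is one that HIF itself induces. Egln1 averaged 33.9 ± 3.68 FPKM in WT, 28.3 ± 2.03 in LILRB4 and 29.3 ± 2.73 in SCG2-/-, and Egln3 averaged 29.2 ± 2.07, 23.4 ± 3.3 and 26.2 ± 3.92 (SD, n = 3). For both, every LILRB4 library lay below every WT library, though for Egln1 only just, at 29.9 FPKM in LILRB4 replicate 3 and 30.1 in WT replicate 1. The difference was -0.29 for Egln1 (SE 0.14, edgeR adjusted p = 0.235), against -0.35 for Egln3 (SE 0.15, edgeR adjusted p = 0.206), which was -0.21 without LILRB4 replicate 1, and neither passed.

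Of the other hypoxia targets, Bhlhe40 alone passed in LILRB4 against WT, and 6 of the 8 in the count table had a negative log2 fold change (median -0.19). P4ha1 and P4ha2 encode the catalytic subunits of collagen prolyl 4-hydroxylase. P4ha2 measured 9.39, 10.5 and 10.6 FPKM in WT, 6.53, 6.41 and 7.88 in LILRB4, and 7.75, 7.55 and 10.9 in SCG2-/- replicates 1 to 3. Its LILRB4 libraries lay below all WT libraries, and SCG2-/- replicate 3 alone of its group lay above WT. The LILRB4 against WT difference was -0.58 (SE 0.18, edgeR adjusted p = 0.0944), which DESeq2 called. P4ha1 averaged 69.3 ± 1.83, 60.2 ± 7.59 and 65.0 ± 4.66 FPKM (SD, n = 3), also without overlap between LILRB4 and WT.

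Ankrd37, a small ankyrin repeat gene induced by HIF1A, measured 11.1, 13.05 and 9.91 FPKM in WT, 4.51, 9.17 and 7.44 in LILRB4, and 10.98, 6.71 and 10.6 in SCG2-/- replicates 1 to 3. LILRB4 replicate 1 was the lowest library, and the LILRB4 libraries lay below the WT libraries (-0.72, SE 0.27, edgeR adjusted p = 0.155, or -0.46 without LILRB4 replicate 1). Ufsp2 overlaps it on the opposite strand. Bnip3 and Bnip3l encode mitophagy receptors. Bnip3 averaged 49.99 ± 15.9, 33.3 ± 9.82 and 34.9 ± 3.85 FPKM in WT, LILRB4 and SCG2-/- (-0.61 in LILRB4 against WT, SE 0.25, edgeR adjusted p = 0.182, or -0.40 without WT replicate 2), and Bnip3l averaged 41.4 ± 4.99, 38.1 ± 1.5 and 38.4 ± 2.26 FPKM (SD, n = 3).

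Vegfa, the angiogenic growth factor, averaged 161 ± 26.7 FPKM in WT, 198 ± 46 in LILRB4 and 149 ± 9.32 in SCG2-/- (SD, n = 3), and its SCG2-/- libraries lay below all LILRB4 libraries (-0.34, 95% interval -0.72 to 0.03, edgeR adjusted p = 0.523). This was -0.16 without LILRB4 replicate 2 and -0.18 with the T and NK covariate. Ndrg1, a stress-responsive hypoxia target, averaged 75.1 ± 8.78, 73.0 ± 8.83 and 78.4 ± 4.58 FPKM and overlapped between all groups. Adm, which encodes the vasodilator adrenomedullin, was the lowest member at 0.44 to 2.04 FPKM. It is absent from the count table, and with recovered counts its 95% interval in LILRB4 against WT, -1.40 to 0.51, left a 2-fold decrease possible.

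**Figure D5:**
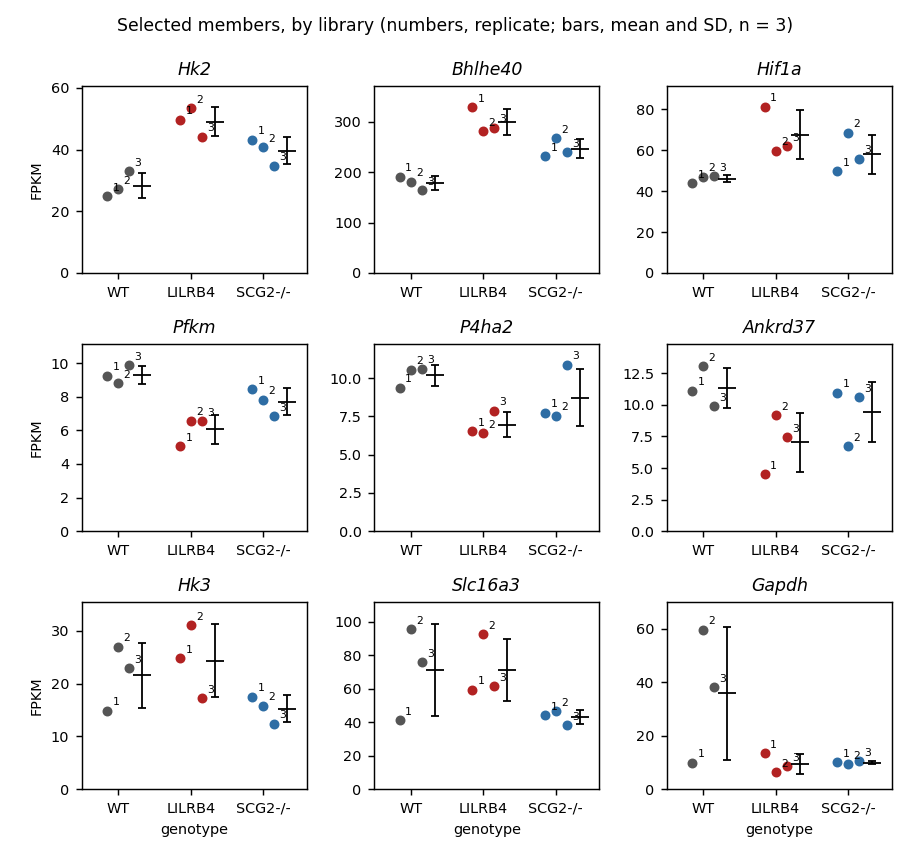
FPKM (vertical axes) of 9 selected members in each library, numbered by replicate and coloured by genotype, with the mean and SD of 3 libraries beside each group. Hk2, Bhlhe40 and Hif1a lie higher in LILRB4 than in WT without overlap, Pfkm, P4ha2 and Ankrd37 lie lower without overlap, and Hk3, Slc16a3 and Gapdh vary widely within groups.

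Counting members whose 3 libraries lay wholly on 1 side of the other group's gives the spread without a model. In LILRB4 against WT, 4 of 34 were higher (11.8%, against 10.9% of 15183 genes): Hk2, Pfkp, Hif1a and Bhlhe40. In the same comparison 7 of 34 were lower (20.6%, against 12.6%): Pfkm, the second Aldoa model, Egln1, Egln3, Ankrd37, P4ha1 and P4ha2. The share of higher members was close to that of all genes. Between SCG2-/- and LILRB4, 8 of 34 were lower in SCG2-/- (23.5%, against 8.88%), namely Slc2a1, Hk1, Hk2, Pfkp, Pgam1, Slc16a3, Vegfa and Bhlhe40, and 1 was higher, Pfkm (2.94%, against 6.64%). Between SCG2-/- and WT, Hk2, Hif1a and Bhlhe40 were higher (8.82%, against 11.4%) and Pfkm, Pfkfb4, Pgam1 and Ldha were lower (11.8%, against 10.7%), shares close to those of all genes.

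Other genes of the 2 pathways were read from 3 lists. Of 49 other glycolysis genes, 28 were in the count table, and in LILRB4 against WT 0 were higher and 1 lower by edgeR. This was Eno3, the muscle enolase, at 40.4 ± 5.67 FPKM in WT, 23.3 ± 4.72 in LILRB4 and 27.4 ± 3.33 in SCG2-/- (SD, n = 3), with a difference of -0.82 (SE 0.18, edgeR adjusted p = 0.0458) that did not pass with recovered counts (edgeR adjusted p = 0.0698). The hexose transporter gene Slc2a6 averaged 15.6 ± 1.58 FPKM in WT, 31.9 ± 10.6 in LILRB4 and 27.0 ± 3.83 in SCG2-/- (1.01 in LILRB4 against WT, SE 0.24, edgeR adjusted p = 0.0555). Adpgk, an ADP-dependent glucokinase, differed by 0.43 (SE 0.16, edgeR adjusted p = 0.139). The list's median log2 fold change was -0.04 in this comparison, 0.10 in SCG2-/- against LILRB4 and -0.10 in SCG2-/- against WT, and 0 of 28 passed in either comparison of SCG2-/-.

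Of 20 HIF pathway components, 18 were tested and 0 passed in any comparison with edgeR. In LILRB4 against WT, p before adjustment was under 0.05 for 0 higher and 1 lower of these 18, against 1113 higher and 1117 lower of 9877 genes. The components of smallest p there were Cul2, a scaffold of the VHL ubiquitin ligase (-0.35, SE 0.16), Hif1an, which encodes the asparagine hydroxylase that restrains HIF (0.46, SE 0.22), and Stub1, a ubiquitin ligase (-0.40, SE 0.20). Cul2 differed in SCG2-/- against WT by -0.47 (SE 0.16, edgeR adjusted p = 0.317) and Hif1an by 0.58 (SE 0.23, edgeR adjusted p = 0.33). Elob, an adaptor of the same ligase as Cul2, differed by -0.33 in SCG2-/- against LILRB4 and by -0.49 against WT, each with SE 0.19, and Cited2, a competitor of HIF for its coactivators, by 0.51 (SE 0.30) in the former.

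Of 51 further hypoxia targets, 42 were tested and 0 passed in any comparison with edgeR. In LILRB4 against WT, p before adjustment was under 0.05 for 5 higher and 9 lower of these 42, against 1113 higher and 1117 lower of 9877 genes. The medians of the targets were 0.02, 0.05 and -0.04 in the order of the comparisons above. Kdm6b, a histone H3 demethylase, averaged 61.4 ± 12.3, 122 ± 28.8 and 85.0 ± 20.3 FPKM (SD, n = 3) in WT, LILRB4 and SCG2-/- (0.96 in LILRB4 against WT, SE 0.24, edgeR adjusted p = 0.0623). Hilpda, a lipid droplet protein, averaged 157 ± 38.3, 301 ± 61.1 and 218 ± 82 FPKM (0.91, SE 0.28, edgeR adjusted p = 0.103). Cavin3, a caveolar coat gene, averaged 43.1 ± 8.47, 23.6 ± 6.72 and 28.0 ± 5.14 FPKM (-0.89, SE 0.24, edgeR adjusted p = 0.0696).

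The smallest p among these targets in SCG2-/- against LILRB4 was that of Rab20, a small GTPase of endosomes and phagosomes, at 52.8 ± 17.9, 88.1 ± 16.6 and 39.6 ± 11.2 FPKM (SD, n = 3) in WT, LILRB4 and SCG2-/-, with a difference of -1.09 (SE 0.26, edgeR adjusted p = 0.235). Arg1, arginase 1 of suppressive myeloid cells, differed, from the count table, by -1.02 (SE 0.26, edgeR adjusted p = 0.248) and, from recovered counts, by -0.37 (SE 0.39, edgeR adjusted p = 0.841), since its values are unequal between the tables. Mxi1, a MYC antagonist, differed by -0.52 (SE 0.18, edgeR adjusted p = 0.362). Against WT in the same libraries, the cytokine gene Mif differed by -0.61 (SE 0.22) and Kdelr3, a retention receptor of the secretory pathway, by -0.60 (SE 0.21), each with an edgeR adjusted p of 0.317.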

How the data were processed

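Libraries were made with a strand-specific poly-A kit from total RNA, per the labels' protocols. The submitters' processing notes name HISAT2 2.0.5 (an aligner) and featureCounts 1.5.0-p3 (a read counter). Build, annotation and strand setting were not given in the sources used here. Ends of genes in the table matched GENCODE M21 (GRCm38) for 98.3% of 54409 shared identifiers and for 33 of 34 members. The authors deposited raw counts for 9877 genes and FPKM for 54532 genes. Deposited FPKM times length, scaled per library, came out whole within 0.01 for 100% of values, and these are the recovered counts. These summed to 15004944 to 28070495 per library and also gave the marker CPM. For a count of 0 the upper limit is 3 counts, for counting error only.

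Deposited counts were fitted with edgeR 4.0.16 in R 4.3.3 (filterByExpr with a minimum count of 10, TMM, robust quasi-likelihood test, all 9 libraries, 6 residual degrees of freedom), with p-values adjusted by Benjamini-Hochberg over all genes and a threshold of 0.05. SE is the absolute log2 fold change over the root of the F statistic, and intervals are 1.96 SE. With few degrees of freedom these intervals are approximate and somewhat narrower than 95%. For Egln1 in LILRB4 against WT the interval, -0.55 to -0.02, excluded 0 although the edgeR p before adjustment was 0.0572. Adm and the second Aldoa model came from the same fit of recovered counts (15743 genes). For DESeq2 and the T and NK covariate, shares of all genes join a fit of deposited counts with a separate fit of recovered counts. The latter gave only genes absent from the count table. The T and NK sum differed between groups, so that covariate cannot separate cell content from genotype. The code was tested on simulated counts. Alternatives were recovered counts, DESeq2 1.42.0 or its size factors, limma 3.58.1 on log2(FPKM + 1) or + 0.1 (genes at 1 FPKM or more in 3 libraries, or all), no count filter, 2 groups only, a replicate block, leaving out each library, and a T and NK covariate added after seeing the data.

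The members and all lists were chosen with earlier results of these data known. Values per library were printed for members called by either count source, the 3 of smallest p in each comparison, members unequal between tables, Hif1a and the most abundant member of each role, and other genes were named where called or among the 3 of smallest p of their list. P4ha2 and Ankrd37 were added after their values were seen. A gene that this rule names is not reported here.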

Additional observations from a re-analysis of the deposited data

How the results depend on the processing

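In LILRB4 against WT, the number of members passing was 2 with edgeR on deposited counts. It was 1 with recovered counts of all genes, 0 with limma at either pseudocount or without a filter on low FPKM, 7 with DESeq2 (Hk2, Pfkp, Hif1a and Bhlhe40 higher, as were 4.92% of all genes, and Pfkm, Gapdh and P4ha2 lower, as were 2.63%), 0 with only the 2 groups compared, and 0 to 3 when 1 library was left out. It was 2 with recovered counts of the count table's genes, with DESeq2 size factors in edgeR and without a count filter, and 3 with the T and NK covariate (2 higher, 1 lower, against 2.41% and 0.832% of all genes). In SCG2-/- against WT, DESeq2 called 1 member and the other alternatives 0, and in SCG2-/- against LILRB4 all called 0. No called value changed sign. Of 680 member values in LILRB4 against WT, 647 kept their side of the threshold, 25 lost and 8 gained a call, and 42 uncalled values changed sign. Over the 20 alternatives, Hk2 lay between 0.69 and 0.87 (adjusted p 6.33e-05 to 0.144) and Bhlhe40 between 0.65 and 0.78 (adjusted p 8.75e-06 to 0.189).

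Replicate numbers were checked for pairing. Correlations of deviations from the group means between same-numbered libraries were 0.66, 0.539 and -0.455 for LILRB4 and WT, -0.544, -0.303 and -0.177 for SCG2-/- and LILRB4, and -0.293, -0.126 and 0.408 for SCG2-/- and WT. Their signs were mixed, and the main fit used no pairing. With 3 libraries per group, such correlations cannot exclude that libraries of the same number shared a day or batch. With a replicate block, 0 members passed in LILRB4 against WT (Hk2 0.76, edgeR adjusted p = 0.0685, Bhlhe40 0.72, edgeR adjusted p = 0.0931) and 1 gene of all genes did.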
